A study of Hypsibius dujardini with 126 samples.

Results

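Single embryos from the last hours sampled in the tardigrade Hypsibius dujardini were compared as 2 groups, 84-91 h against 93-99 h of label time. Embryos were taken by their number in the labels: embryos 63-70 make the earlier group and embryos 72-78 the later, 15 of the 126 embryos of the series. Embryo 71, at 92 h, lies between them and entered only the descriptions along the hours. An embryo was left out when its transcript counts summed to under 10% of the median embryo of the series or when a single transcript took over 10% of them. This kept 13 of the 15, 7 at 84-91 h and 6 at 93-99 h, and 96 of the 126 in the whole series. All came from laboratory cultures for which the labels name no treatment or genotype, were kept at 20 °C and were frozen singly. Label times run from fertilization, but the incubation described was timed from the 2-cell stage, so time zero is uncertain. No label links an embryo to a mother or clutch, and some may share one, so p-values measure the spread between these embryos. The labels do not record movement or hatching, so closeness to hatching rests on the label time alone.

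Tardigrade embryos develop directly: the animal inside the eggshell builds the segmented body, legs with claws, muscles, nervous system, gut and feeding apparatus of the juvenile that hatches. The cuticle, a chitin-containing layer secreted by the epidermis, covers the body and lines the foregut and hindgut. CEL-Seq, the method used, reads the 3' ends of polyadenylated RNAs, which carry an embryo's barcode, after amplification by transcription in vitro. The deposited table does not pair its transcript IDs with gene names, so transcripts are described by ID, level and course, with no function.

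Kept embryos held 286137 to 2077092 transcript counts, and levels are given as CPM, transcript counts scaled to a common library size per embryo. Embryo 64, at 85 h, was the shallowest, and embryo 77, at 98 h, was next with 369809. The excluded embryo 65, at 86 h, had 23135 counts with 64.5% of them on HD_v1_tr_06538. The excluded embryo 76, at 97 h, had 131746 counts with 27.4% on the same transcript. Set against the spike-in RNA added to each sample, HD_v1_tr_06538 gave 0.101 and 0.158 counts per spike-in count in these 2 embryos, within the 0.0854 to 0.158 of the kept embryos of 84-99 h. All transcripts together gave only 0.156 and 0.576 per spike-in count there, against 3.83 to 6.84 in the kept embryos.

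As groups, the embryos of 93-99 h and 84-91 h were not told apart transcript by transcript. Of 5558 transcripts tested with edgeR's quasi-likelihood test, 0 differed at an adjusted p under 0.05, a called share of 0%. At an unadjusted p under 0.05 there were 215, or 3.87%, and the smallest adjusted p was 0.375 in edgeR. The median log2 fold change was -0.05. In 18 transcripts, 0.324% of those tested, every embryo of one group lay above every embryo of the other, 7 of them higher at 93-99 h and 11 lower. DESeq2 gave 39 calls, 26 higher and 13 lower, with 533 of 10629 at an unadjusted p under 0.05, and limma gave 0 calls with 457 of 5558. Without embryo 78 edgeR gave 1 call, lower at 93-99 h, and without both shallow embryos, 64 and 77, it gave 0.

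**Figure D1:**
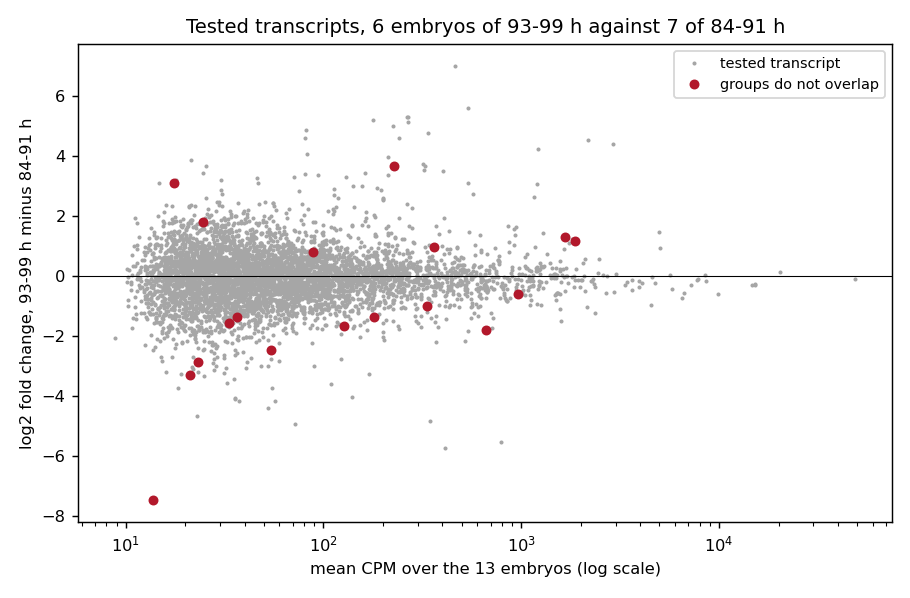
Log2 fold change of 93-99 h over 84-91 h (vertical axis) against mean CPM over the 13 embryos (horizontal axis, log scale), 1 point per tested transcript, from edgeR. The 18 red points are transcripts whose embryos do not overlap between the groups; the cloud narrows from left to right, and none of the 5558 points passed an adjusted p of 0.05.

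A count of 0 does not show that the hours are alike, because the intervals were wide for most transcripts. The common coefficient of variation between embryos in the fit was 1.16. The fit has no term for the hour, so this spread includes any change with time inside a group. The limma 95% interval of the log2 difference reached a median of 2.13 to either side of the estimate for the 4044 transcripts at 10 to 100 CPM, 1.12 for the 1364 at 100 to 1000 CPM and 0.58 for the 149 at 1000 CPM and over. A change of 2-fold or more in either direction lay outside the interval for 266 transcripts, 4.79% of those tested. Among transcripts at 1000 CPM and over it lay outside for 85, or 57.0%. The most abundant transcripts were therefore the ones best bounded. HD_v1_tr_11826, the top transcript in each kept embryo of the 2 groups, stood at 49856 ± 3705 CPM at 84-91 h (SD, n = 7) and 47868 ± 8777 at 93-99 h (SD, n = 6). Its limma interval ran from -0.39 to 0.18 on the log2 scale.

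Measures of the whole library did not separate the groups either. Thinned to the minimum total for keeping an embryo, those of 84-91 h held 5317 ± 900 detected transcripts (SD, n = 7) and those of 93-99 h 4943 ± 537 (SD, n = 6), exact permutation p = 0.407. The ranges overlapped, from 3366 in embryo 64 to 5932 at 84-91 h and from 3968 in embryo 77 to 5542 at 93-99 h. Without embryo 64 the difference was -699 transcripts with an exact permutation p of 0.0130. The 10 most abundant transcripts took 16.7% ± 1.02 of the counts at 84-91 h (SD, n = 7) and 16.3% ± 1.99 at 93-99 h (SD, n = 6), exact permutation p = 0.717. The log2 of transcript counts per spike-in count was 2.47 ± 0.27 in the earlier group (SD, n = 7) and 2.44 ± 0.18 in the later (SD, n = 6), exact permutation p = 0.796. RNA content relative to the spike-in thus gave no detected difference.

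Depth and read quality stand beside these values. Log2 total transcript counts were 19.85 ± 0.90 at 84-91 h (SD, n = 7) and 19.17 ± 0.41 at 93-99 h (SD, n = 6), exact permutation p = 0.121, and without embryo 64 the exact permutation p was 0.00649. Reads that did not align took 48.0% and 48.6% of reads (exact permutation p = 0.695), and reads outside any transcript model 6.29% and 6.68% (exact permutation p = 0.203). The mean rank correlation of embryos within a group, over the 5558 tested transcripts at equal depth, was 0.508, against 0.488 between groups. The difference of 0.020 had a one-sided exact permutation p of 0.0175. After adjustment over the 8 measures tested it was 0.140, and no other measure had an adjusted p below 0.483. All tests of single measures other than this one were two-sided.

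Fits along label time did make calls. A linear term in label time over the 14 kept embryos of 84-99 h, embryo 71 included, called 27 of 7308 transcripts in edgeR, or 0.369%, of which 13 rose and 14 fell; with RLE factors 31 rose and 16 fell, and without embryo 64 22 rose and 9 fell. A curved term, a natural spline of label time with 3 degrees of freedom added after the data had been seen, called 88 of 8976, or 0.980%. The fits shared 22 transcripts. Leaving out each embryo in turn gave 11 to 33 calls for the linear term and 46 to 103 for the spline, the lowest of both without embryo 63, at 84 h. The linear count was also under 18 without embryo 67, 70, 71 or 74, at 14, 17, 14 and 16 calls.

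HD_v1_tr_10964, named after its values were seen, was 1 of the 18 transcripts whose groups did not overlap. At 84-91 h its lowest, median and highest levels were 857, 1120 and 1509 CPM. At 93-99 h they were 2045, 2312 and 4728 CPM, with no overlap, and embryo 71 at 92 h stood at 1360 CPM. The group fold change was 1.18 on the log2 scale with an edgeR adjusted p of 0.375, and the limma interval ran from 0.66 to 1.64. The rise per hour, 0.13 on the log2 scale, had an edgeR adjusted p of 0.00851. In embryos 1-25, a separate stretch of embryo numbers, the kept embryo of 85 h held 1068 CPM and that of 92 h held 1767. Those of 95 and 98 h held 2181 and 2110 CPM of HD_v1_tr_10964. Before 84 h, in the stretch that holds the groups, its median and highest levels were 1554 and 2097 CPM at 47-59 h. They were 507 and 953 CPM at 60-69 h, and 1584 and 2361 CPM at 70-79 h. The single kept embryo of 80-83 h held 1531 CPM. The 84-91 h median thus lay below those of 47-59 h and 70-79 h. The 93-99 h median lay above these medians but below the highest embryo of 70-79 h.

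HD_v1_tr_05132 went the other way, also named after its values were seen. It stood at 3411, 5009 and 8639 CPM (lowest, median, highest) at 84-91 h and at 2085, 3055 and 3799 CPM at 93-99 h, so the groups overlapped slightly. The log2 fold change was -0.98 with an edgeR adjusted p of 0.375, and the fall per hour, -0.11 on the log2 scale, had an edgeR adjusted p of 0.0190. The transcript was nearly absent early in the course: kept embryos 79-126 held at most 13.5 CPM and embryos of 47-59 h at most 4.93 CPM. Kept embryos 1-25 up to 18 h held at most 26.5 CPM. At 70-79 h the median was 2.94 CPM and the highest embryo held 7321 CPM. It stood at 6999 CPM in embryo 60, the single kept embryo of 80-83 h. In embryos 1-25 the kept embryos of 85, 92, 95 and 98 h held 4886, 2363, 2880 and 899 CPM. The excluded embryos 24 and 76, at 97 h, held 7919 and 3613 CPM.

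**Figure D2:**
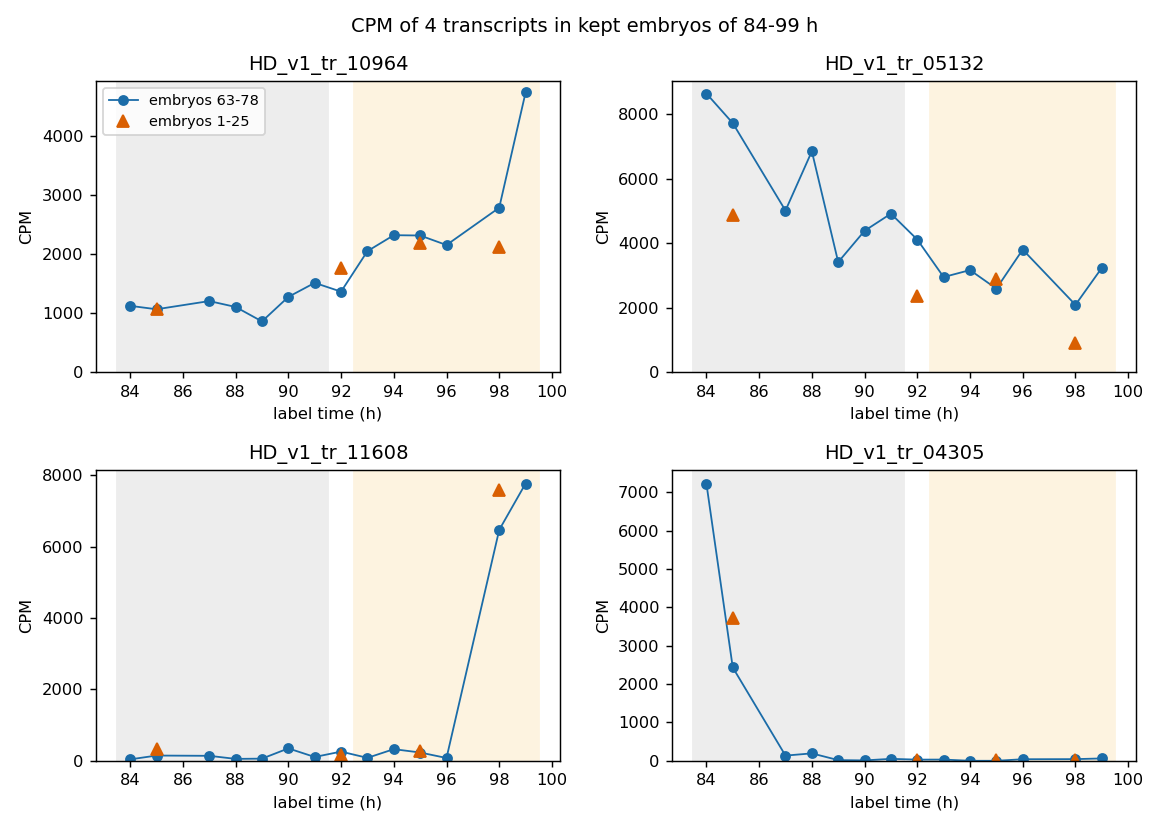
CPM (vertical axes, from 0) of 4 transcripts against label time in h in kept embryos, 1 point per embryo, circles for embryos 63-78 and triangles for embryos 1-25; grey and cream bands mark 84-91 h and 93-99 h. HD_v1_tr_10964 lies higher and HD_v1_tr_05132 lower in the later band, whereas HD_v1_tr_11608 and HD_v1_tr_04305 stand high in the embryos of 98-99 h and 84-85 h.

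Transcripts set apart in neighbouring embryos were found mainly at the ends of the hours sampled. For each of the 13 pairs of consecutive kept embryos, transcripts were counted that were at least 4-fold above all 12 other embryos in both members of the pair, with at least 100 CPM there, or at least 4-fold below all 12, with at least 20 CPM in each of those. The pair at 84-85 h had 12 high and 38 low transcripts, and the pair at 98-99 h had 30 high and 11 low. The 11 pairs in between had at most 1 high and 4 low. The rule was chosen after the data had been seen, cannot count a step shared by a whole group, and favours the end pairs under any steady change with time, so these counts are a description. They move with the processing: with TMM-scaled CPM the list high at 84-85 h held 5. With either embryo of the pair left out, the lists held 36 to 71 high and 60 to 255 low at 84-85 h, and 44 to 80 high and 42 to 123 low at 98-99 h. The 91 transcripts of the 4 lists held 12 of the 27 linear calls and 44 of the 88 spline calls, which rest on the same embryos as the pair rule and are no support for it. The test between the groups held 6 of the 12, 38 of the 38, 25 of the 30 and 11 of the 11, and called 0. They include near-identical count rows, which may be copies or fragments of 1 gene: counting rows that differ by under 5% once leaves 11, 34, 26 and 11.

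The 30 transcripts high at 98-99 h stayed at a low share of the counts until 96 h. They took 0.0180% to 0.399% of the counts in embryos of 84-91 h, 0.0905% at 92 h and 0.117% to 0.323% at 93-96 h. In embryo 77, at 98 h, they took 9.14%, and in embryo 78, at 99 h, 5.07%. The rule chose the transcripts for this contrast. In edgeR the spline called 19 of the 30, beside 0.980% of all tested, and the linear term 8, beside 0.369%, in the embryos that chose the list. At 97 h the 2 excluded embryos, 76 and 24, lay in between with 3.19% and 4.52%. A raised share in an excluded embryo was not limited to 97 h: embryo 17, at 80 h, held 2.88% from 2611 counts. HD_v1_tr_06538 took 51.3% of the counts of embryo 17, 27.4% of embryo 76 and 10.4% of embryo 24, which lowers every other share there. Shares and CPM of the excluded embryos named here are thus not on the scale of kept ones. The other excluded embryos of 80-86 h held 0% to 0.706%.

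Within that list HD_v1_tr_11608, named after its values were seen, stood at 39.7, 107 and 347 CPM (lowest, median, highest) at 84-91 h. At 93-96 h its 4 embryos held 82.1, 326, 232 and 78.3 CPM. It then stood at 6471 CPM in embryo 77 and 7770 CPM in embryo 78. Among excluded embryos, 76 and 24 at 97 h held 1822 and 2887 CPM. Excluded embryo 21, at 86 h, held 1164 CPM from 67 counts, and excluded embryo 65, at 86 h, held 0. The edgeR adjusted p was 0.000109 for the spline and 0.453 between the groups, where the log2 fold change was 4.25. The group mean of 93-99 h, 2493 ± 3609 CPM (SD, n = 6), describes none of its embryos.

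The 12 transcripts high at 84-85 h were scarce in the later kept embryos. Their summed share was 2.81% in embryo 63 and 1.32% in embryo 64, then 0.0434% at 87 h and 0.144% at 88 h, and at most 0.0182% in each later kept embryo. In edgeR the spline called 10 of the 12 and the linear term 4, beside 0.980% and 0.369% of all tested, again in the embryos that chose the list. HD_v1_tr_04305, named after its values were seen, stood at 7227 CPM at 84 h and 2432 CPM at 85 h, and at no more than 193 CPM in any later kept embryo; the excluded embryo 65 at 86 h held 864 CPM from 20 counts. Its edgeR adjusted p was 0.000132 for the spline, 0.0368 for the linear term and 0.548 between the groups. These transcripts were already present before 84 h: their share was 3.63% in embryo 60 at 81 h and 0.00545% to 1.02% in the 8 kept embryos of 70-79 h.

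Among the kept embryos of 84-99 h, the 38 transcripts low at 84-85 h came up in the same interval. They took 0.0715% of the counts in embryo 63 and 0.0898% in embryo 64, against 1.61% at 87 h and 1.14% to 2.09% in all kept embryos from 87 h on. Excluded embryos 58, 59, 61 and 62, at 79, 80, 82 and 83 h, held 0.642%, 0.189%, 0.986% and 0.589%, from 494 counts or fewer. Kept embryo 60, at 81 h, held 0.0771%, and excluded embryo 65, at 86 h, held 0.0692%. Of the 38, 7 had a count at all in embryo 63 and 3 in embryo 64, and the rule required a count in every later kept embryo. Embryo 63 had 705171 counts and embryo 64, the shallowest, 286137; the part of depth was not tested. The spline called 15 of the 38 in edgeR and the linear term 0, beside the same shares of all tested and in the same embryos. The 11 transcripts low at 98-99 h took 0.0645% to 0.119% of the counts until 96 h and 0.000541% and 0.000384% at 98 and 99 h, 2 counts in each embryo, and the spline called 0 of them.

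**Figure D3:**
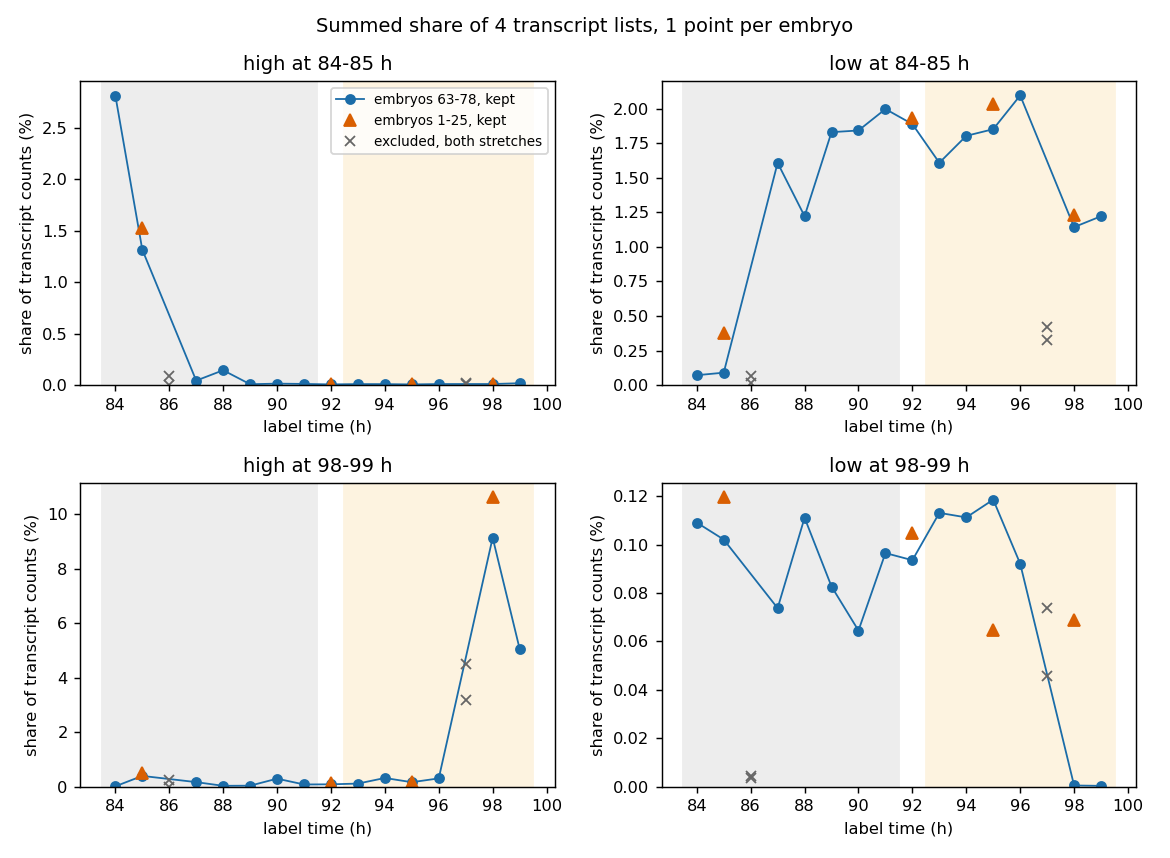
Summed share of transcript counts in % (vertical axes, from 0) of each list against label time in h, 1 point per embryo: circles for kept embryos 63-78, triangles for kept embryos 1-25, crosses for excluded embryos; grey and cream bands mark 84-91 h and 93-99 h. Among the circles the shares change between 85 and 87 h and between 96 and 98 h. The triangles lie near the circles in the panels of the lists high at 84-85 h and high at 98-99 h. For the list low at 84-85 h the triangle at 85 h stands at 0.378%, above the circles of 84-85 h. For the list low at 98-99 h the triangle at 98 h stands at 0.0688%, above the circles of 98-99 h.

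Embryos 1-25 give separate embryos at the same hours whose counts did not enter the pair rule, although their values had been seen. Of these, 4 were kept, embryos 20, 22, 23 and 25 at 85, 92, 95 and 98 h, so they give values and no test. Embryo 25 lay above the other 3 for 30 of the 30 transcripts high at 98-99 h, against 20.8% of the 7109 transcripts at 10 CPM or more. Embryo 20 lay above the other 3 for 10 of the 12 high at 84-85 h, or 83.3%, against 22.7% of the 7109. It lay below them for 28 of the 38 low at 84-85 h, or 73.7%, against 34.3%. Embryo 25 lay below the other 3 for 4 of the 11 low at 98-99 h, or 36.4%, against 16.4%.

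The summed shares in embryos 1-25 were near those of embryos 63-78 for the lists high at 84-85 h and at 98-99 h, and less so for the low lists. The transcripts high at 98-99 h took 10.6% of the counts in embryo 25, against 0.489%, 0.123% and 0.187% in embryos 20, 22 and 23. Those high at 84-85 h took 1.52% in embryo 20 and at most 0.00919% in the other 3. Those low at 84-85 h took 0.378% in embryo 20, above the 0.0715% and 0.0898% of embryos 63 and 64, and 1.23% to 2.03% in the others. The list low at 98-99 h took 0.0688% in embryo 25 and 0.0649% in embryo 23, so the near absence at 98-99 h was not seen there. Embryo 20 had 259319 counts, fewer than any of the 13, and the part of depth in its low values was not tested.

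Across whole profiles, embryos of 84-85 h and 98-99 h correlated less with embryo 22 than those in between. Matching by hour with embryos 20 and 25 was only partial. By rank correlation over the 5558 tested transcripts at equal depth, embryos 77 and 78 were closest to embryo 25, at 0.498 and 0.510. Embryo 64 was closest to embryo 20, at 0.437. The other 11 embryos of 84-99 h, embryo 63 included, were closest to embryo 22. From 87 to 96 h the correlation with embryo 22 lay between 0.544 and 0.588, and it was 0.455 at 84 h and 0.424 at 85 h. Taken from the other side, embryo 20 at 85 h was closest to embryo 67 at 88 h, at 0.452. Its correlation with embryo 63 at 84 h was 0.418, below the 0.423 with embryo 66 at 87 h. Embryo 25 gave 0.493 with embryo 73 at 94 h, near its value with embryo 77. Embryos 64 and 20 also held the fewest detected transcripts at equal depth, 3366 and 3731. Embryo 22 is the deepest of the 4 and thinning does not remove every effect of depth on which counts are 0.

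**Figure D4:**
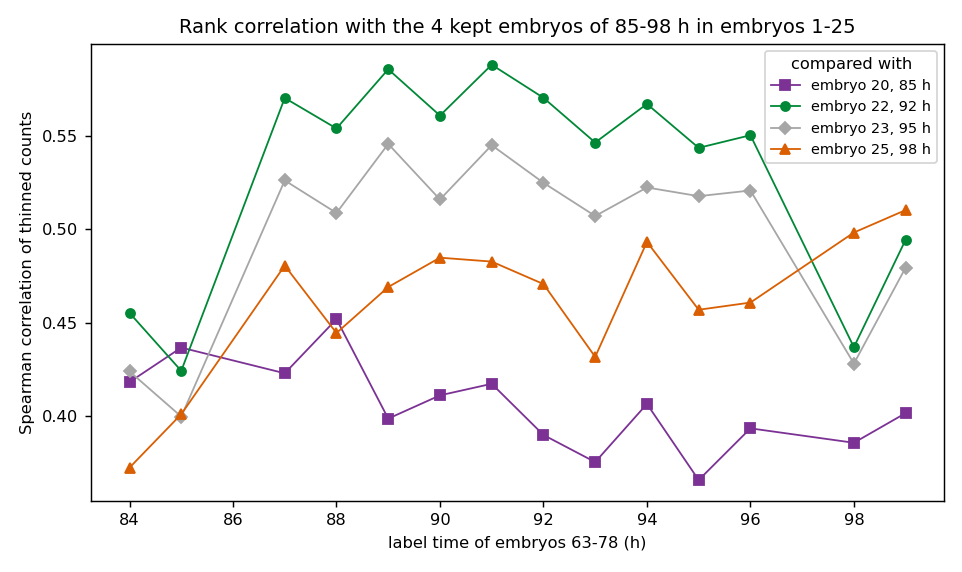
Spearman correlation (vertical axis) of embryos 63-78, placed by label time in h, with each of 4 kept embryos of embryos 1-25, over the 5558 tested transcripts thinned to equal depth. The line for embryo 25 (98 h) is the highest of the 4 at 98 and 99 h, that for embryo 20 (85 h) at 85 h, and that for embryo 22 (92 h) at the other hours.

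More transcripts were called in the step into these hours than in the step within them. The first step spans more hours than the second and its groups hold more embryos, so the counts do not compare rates of change. In 1 fit over the 40 kept embryos 26-78, edgeR called 1279 of 11666 transcripts between 70-79 h (n = 8) and 84-91 h, or 11.0%, 757 higher and 522 lower at 84-91 h. The same fit called 4 between 84-91 h and 93-99 h, all lower at 93-99 h. The difference of the steps itself was called for 434 transcripts, or 3.72%. Both steps share the embryos of 84-91 h, so they are not independent, and the 84-91 h group includes the embryos of 84-85 h.

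The lists differed in when else in development their transcripts were found. Each transcript was placed in the window before 84 h with its highest mean level over embryos outside the comparison. Of the 30 high at 98-99 h, 10 had their earlier maximum at 0-9 h, 8 at 20-29 h and 10 at 80-83 h. Of the 12 high at 84-85 h, 11 had it at 80-83 h, and of the 38 low at 84-85 h, 12 had it at 80-83 h and 11 at 0-9 h. These counts include list members that were not tested between the groups. Among all 5558 tested transcripts, it fell at 0-9 h for 663, at 20-29 h for 351 and at 80-83 h for 2772. The 80-83 h window holds 1 embryo, and with RLE in place of TMM scaling the placing changed to 1391 at 0-9 h and 1659 at 80-83 h.

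HD_v1_tr_11608 shows such an early level. It stood at 6758 ± 3994 CPM in the 8 kept embryos of 0-9 h among embryos 1-25 (SD, n = 8) and 4437 ± 2084 CPM in the 9 among embryos 79-126 (SD, n = 9). Its median was 4551 CPM at 40-46 h over 7 of embryos 79-126, and 41.6 CPM at 47-59 h over 13 of embryos 26-78. These windows lie in separate stretches of embryo numbers, so hour and stretch cannot be told apart between them. At 70-79 h the median was 46.4 CPM and the highest embryo held 4659 CPM. The whole list of 30 took 0.274% to 2.20% of the counts at 0-9 h in embryos 1-25 and 0.681% to 1.94% in embryos 79-126. At 40-46 h the list took 0.464% to 1.32% in embryos 79-126, and at 76 h it took 1.15% in embryo 55. Its share at 98-99 h was above all of these. HD_v1_tr_04305 had no such early level, with at most 6.58 CPM in embryos 1-25 up to 18 h and at most 5.93 CPM in embryos 79-126.

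**Figure D5:**
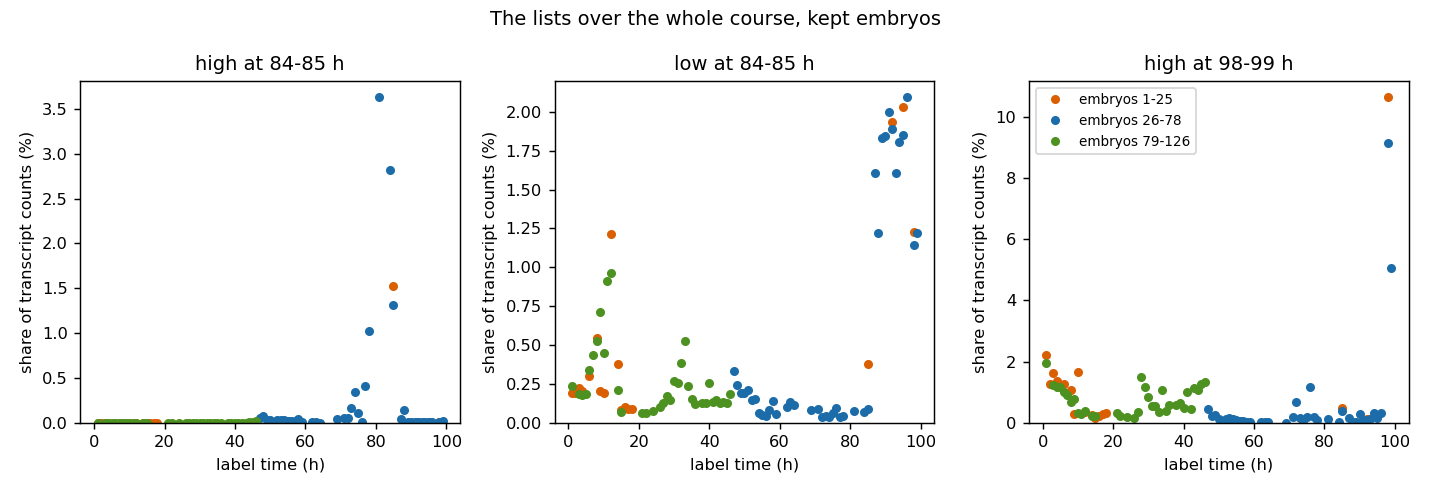
Summed share of transcript counts in % (vertical axes, from 0) of 3 lists over the whole course of label time in h, kept embryos with a label time, 1 point per embryo coloured by stretch of embryo numbers. The list high at 84-85 h rises from 70-79 h and is at 0.144% or less from 87 h on, that low at 84-85 h stands at 1.14% or more from 87 h on and reaches 1.22% in 1 embryo of 10-19 h, and that high at 98-99 h has lower shares at 0-9 h and its highest at 98-99 h.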

How the data were processed

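The authors deposited raw read counts per transcript model for each embryo, with no normalization. The submitters' processing notes name Bowtie2 2.1.0, HTSeq 0.5.4p3 and CASAVA 1.8; the genome build is not given in the sources used here. In all, the table holds 12746 transcript rows, 92 spike-in rows and 5 summary rows; only transcript rows entered totals and tests. No molecular identifiers are recorded, so reads are not independent molecules. Embryos, lists, named transcripts, the pair rule and the spline were chosen with earlier results of these data known. Several other descriptive rules for lists were tried before the pair rule was settled on. The planned rule for named IDs required an adjusted p under 0.05 between the groups and named none.

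Counts were tested with edgeR 4.0.16 (R 4.3.3; TMM factors, low-count filter, quasi-likelihood test, Benjamini-Hochberg adjustment at 0.05), limma 3.58.1 (log2 CPM, prior count 2) and DESeq2 1.42.0. The label-time fits first used a low-count filter that treated all embryos as 1 group; the filter based on the design replaced it after both counts had been seen. Single measures had exact permutation tests over 1716 assignments. The edgeR and permutation tests were run on simulated data to check the code. For edgeR the pass condition was set at a smaller spread than that of these embryos, so passing does not show power here. Other steps used scipy 1.17.1, pandas 2.3.3, matplotlib 3.10.9 and numpy 2.4.6 under Python 3.11.15.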

Additional observations from a re-analysis of the deposited data

Results flagged for a closer look

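The highest or lowest embryo lay far from the rest of its group in 5 of 36 checks over measures, lists and named transcripts; chance gives about 1 in 20, a rate that does not hold for the lists and transcripts, which were chosen by their values in these embryos. Embryo 64 held 3366 detected transcripts against 5147 or more in the other embryos of 84-91 h. Embryo 63 held 7227 CPM of HD_v1_tr_04305, and the next was embryo 64 with 2432. Embryo 69 held 347 CPM of HD_v1_tr_11608, with 147 the next highest at 84-91 h. Embryo 78 held 4728 CPM of HD_v1_tr_10964, with 2780 next at 93-99 h. Embryo 78 also gave 0.0182% of its counts to the transcripts high at 84-85 h, with 0.0103% next.

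In the embryos of 97 h that the exclusions removed, the transcripts high at 98-99 h took 3.19% of the counts of embryo 76 and 4.52% of those of embryo 24, above each kept embryo of 84-96 h. The same transcripts took 2.88% of the counts of embryo 17, an excluded embryo of 80 h. These shares are lowered by the counts on HD_v1_tr_06538, most in embryo 17, where it took 51.3%.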

How the results depend on the processing

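Between the groups, the count of 0 held under RLE factors, library size alone, spike-in factors, limma and both filters on low counts. It also held with embryos over the 10% limit kept, with all 15 embryos, with both covariates and with embryo 92 h added to 84-91 h. The test against a 1.5-fold change is stricter than the main test and could add no call. Changed depth limits kept the same 13 embryos and so repeated the main fit. The count was 39 with DESeq2, 4 with all embryos 26-78 in one fit, 27 with a linear term in label time, and 0 to 1 without each embryo in turn. The median log2 fold change was -0.05 under TMM and 0.08 under RLE factors. The linear term called 47 (31 rising, 16 falling) under RLE factors, 45 with no filter and 37 of 1965 with the filter treating all embryos as 1 group, and 11 to 33 without each embryo in turn. The spline called 118, 113 and 72 in those settings, and 46 to 103 without each embryo.

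Leaving out each embryo moved the group difference in detected transcripts from -699 to -179, in the top-10 share from -0.94 to 0.15 percentage points, in log2 transcripts per spike-in count from -0.12 to 0.034, in log2 totals from -0.96 to -0.49, in unaligned reads from -0.10 to 1.43 points and in the rank-correlation separation from 0.0121 to 0.0282. With 8-fold in place of 4-fold the lists high at 84-85 h and 98-99 h held 5 and 16; with TMM-scaled CPM the first held 5, and with RLE-scaled CPM the list low at 98-99 h held 6. With either embryo of a pair left out they held 36 to 71 (high) and 60 to 255 (low) at 84-85 h, 44 to 80 and 42 to 123 at 98-99 h. With RLE factors 1391 transcripts had their earlier maximum at 0-9 h and 1659 at 80-83 h. The causes were not tested. No paired analysis was possible because replicate numbers follow accession order.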
